A study of Homo sapiens with 16 samples.

Results

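The genes described are 9 members of the S100 family that myeloid cells can express: S100A4, S100A6, S100A8, S100A9, S100A10, S100A11, S100A12, S100P and S100Z. They were taken by symbol from a table of 60603 genes, in which each symbol occurs once. RNA was sequenced from 16 libraries of 2 cell lines labelled as acute myeloid leukaemia (AML) lines. SKNO-1 carries the RUNX1-RUNX1T1 fusion and was grown with 10 ng/mL GM-CSF, and U-937 is a line of monocytic type grown without that supplement. Both lines were grown in RPMI1640 with 10% FBS. Each line was treated for 24 h with the DMSO vehicle, with all-trans retinoic acid (ATRA, the ligand of the retinoic acid receptors), with Corin (one molecule that blocks both enzymes of the CoREST repressor complex, the LSD1 demethylase and the HDAC deacetylases), or with ATRA plus Corin, each agent at 0.1 µM. Each of the 8 groups held 2 libraries. The labels do not say whether these were separate cultures, so p-values measure only the spread between libraries, which may be technical. Line and GM-CSF cannot be told apart in any comparison between lines.

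S100 proteins are small EF-hand calcium-binding proteins. S100A8 and S100A9 pair into calprotectin, a major cytosolic protein of neutrophils and monocytes, which with S100A12 is released as an alarmin that engages TLR4 and RAGE. S100A4, S100A6, S100A10 and S100A11 are widely expressed and bind cytoskeletal proteins and annexins. S100P and S100Z are less studied relatives, and their genes lie outside the main S100 cluster.

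In GENCODE 44 on GRCh38, 7 of the 9 genes lie on chromosome 1, S100P lies on chromosome 4 and S100Z on chromosome 5. S100A9 (153357854 to 153361023, plus strand), S100A12 (153373711 to 153375621, minus strand) and S100A8 (153390032 to 153391073, minus strand) follow one another on chromosome 1 with no other S100 gene between them, 12.7 and 14.4 kb apart. S100A4 overlaps S100A3 on the same strand, where S100A3 had at most 6 counts over a group, and S100A6 and S100A11 each overlap a long noncoding RNA on the opposite strand. The authors' strand setting is not given in the sources used here, so their reads may include those of the overlapping genes. The 250 bases before the RefSeq start (GRCh38.p14) of these 3 genes (for S100A8 this start lies upstream of the GENCODE one) are shown because they moved furthest in U-937 and stayed near 0 in SKNO-1. They are printed 5′ to 3′ on the gene's strand, at chr1:153391189-153391438 for S100A8, chr1:153357604-153357853 for S100A9 and chr1:153375622-153375871 for S100A12. Capitals mark matches to GAGGAA (the core of the PU.1 motif) or TTGCNNAA (the core of the C/EBP motif), searched on both strands.
S100A8: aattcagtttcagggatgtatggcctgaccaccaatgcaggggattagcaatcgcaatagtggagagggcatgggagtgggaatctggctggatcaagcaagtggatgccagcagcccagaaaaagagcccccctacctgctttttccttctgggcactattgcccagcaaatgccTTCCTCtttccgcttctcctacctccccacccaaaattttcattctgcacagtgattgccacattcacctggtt
S100A9: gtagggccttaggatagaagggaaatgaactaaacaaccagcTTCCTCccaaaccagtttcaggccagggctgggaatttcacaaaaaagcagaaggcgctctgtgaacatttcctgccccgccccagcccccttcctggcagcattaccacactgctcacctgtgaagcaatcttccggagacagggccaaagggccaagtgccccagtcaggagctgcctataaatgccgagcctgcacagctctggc
S100A12: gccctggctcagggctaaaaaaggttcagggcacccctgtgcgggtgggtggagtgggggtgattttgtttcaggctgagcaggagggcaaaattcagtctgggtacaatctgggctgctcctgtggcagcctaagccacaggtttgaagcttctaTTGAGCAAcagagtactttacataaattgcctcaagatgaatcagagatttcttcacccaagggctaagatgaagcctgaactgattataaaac
S100A8 and S100A9 each hold GAGGAA, on the opposite strand, as do 23.6% of 35116 promoters of that length. S100A12 holds TTGCNNAA, found in 9.05% of promoters. AGGTCA, the half-site of retinoic acid receptors (12.1% of promoters), occurs in none of these 3 windows. Among the other 6 genes, S100A4 holds AGGTCA, S100A11 holds TTGCNNAA and S100Z holds GAGGAA. A match describes the letters only.

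Total counts were 32.8 to 37.8 M per library in SKNO-1 and 28.4 to 37.6 M in U-937. Levels are given as CPM, a gene's counts per M counts of its library after TMM scaling. A call means an adjusted p (edgeR quasi-likelihood test, Benjamini-Hochberg over all genes tested) under 0.05. The low-count filter passed 6 of the 9 genes in SKNO-1 (not S100A8, S100A9 or S100A12) and 8 in U-937 (not S100Z). The DMSO libraries of SKNO-1 differed from each other more than any other pair: the SD of their log2 difference was 0.359 over 9325 genes and followed GC content with r = 0.811 across genes, against SDs of 0.108 to 0.21 in the other 7 groups. Results that change when one of them is left out are given both ways. RUNX1T1 was at 95.4 to 156 CPM in SKNO-1, where HOXA9 and HOXA10 were at 0 counts. All 6 myeloid markers were detected in both lines. Of lymphoid and stromal markers, NKG7 (67.8 to 135 CPM) and PECAM1 (56.2 to 293 CPM) were expressed in U-937, while CD3D, CD8A and MS4A1 were at 0 counts there. The B cell marker PAX5 had 0.398 to 10.8 CPM in U-937 and 3.47 to 6.2 CPM in SKNO-1, where PECAM1 had 7.23 to 24.4 CPM. The part of such transcripts in the results was not tested. In bulk RNA, fewer cells of a type and less RNA per cell cannot be told apart.

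**Figure D1:**
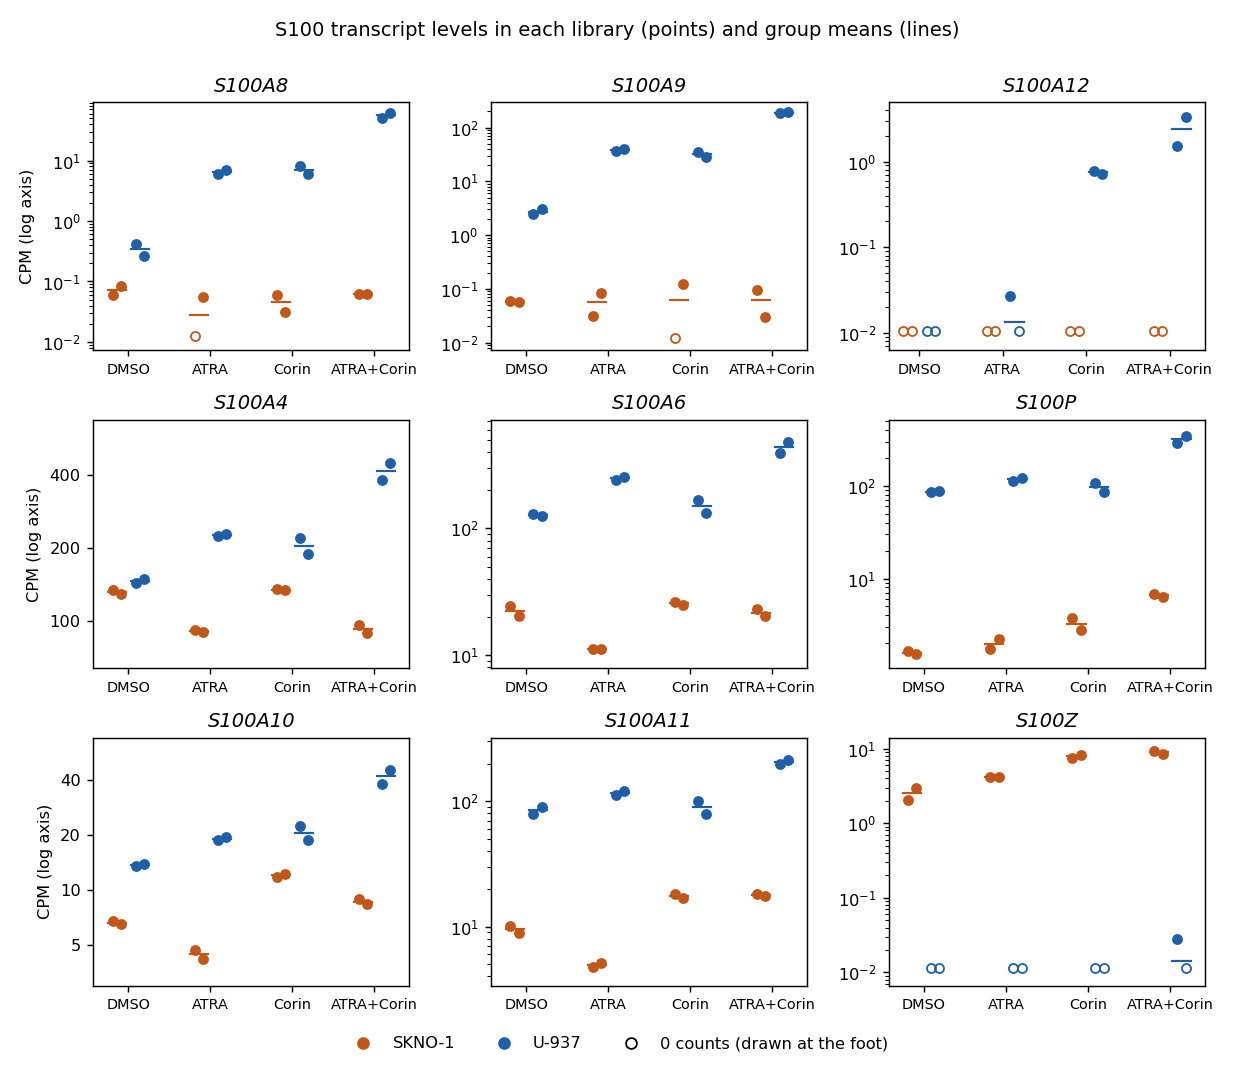
Level of each S100 gene in CPM (log axis) in every library, by treatment, with SKNO-1 in orange and U-937 in blue; points are libraries, short lines are group means of 2 libraries, and open circles at the foot mark 0 counts. The U-937 points of S100A8 climb from 0.423 and 0.262 CPM with DMSO to 50.5 and 61.2 with both agents, while the SKNO-1 points reach at most 0.0846 CPM.

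The vehicle-treated lines differed in most of these genes. In DMSO, 6 of 9 were higher in U-937 and 1 was lower, beside 31.7% of all genes tested higher and 33.1% lower. S100A8, S100A9 and S100Z are in these counts. They passed the low-count filter through the line where they were higher, so their part in the counts is a description only. S100P had 86 and 86.8 CPM in the U-937 libraries and 1.65 and 1.52 CPM in SKNO-1, a log2 difference of 5.77 ± 0.17 (SE, adjusted p = 5.98e-16). S100P binds ezrin and RAGE. S100A11, a partner of annexin A1, was 3.16 log2 units higher in U-937 and S100A6, which binds the ubiquitin-pathway protein CACYBP, was 2.52 higher. S100A10, the annexin A2 partner, was 1.05 higher. S100A9 had 82 and 92 counts in U-937 against 2 and 2 in SKNO-1 (log2 difference 5.47), and S100A8 had 14 and 8 against 2 and 3 (2.19). S100A12 had no count in any of the 4 DMSO libraries. The S100A4 difference was 0.15 (adjusted p = 0.168), and 0.24 (adjusted p = 0.0491) without SKNO-1 DMSO replicate 1.

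S100Z ran the other way. It had 69 and 106 counts in the SKNO-1 DMSO libraries and none in those of U-937, so it was at least 53.9-fold higher in SKNO-1, taking 3 counts over the U-937 group as the floor. Across the 8 U-937 libraries a single S100Z count was found.

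Per transcript length, in the deposited TPM, S100A4 was the highest of the 9 genes in every SKNO-1 group (mean 255 TPM with DMSO), followed by S100A6 (52.5). In U-937 with DMSO, S100A6 (386), S100A4 (355), S100P (255) and S100A11 (186) were the most abundant. The 9 genes summed to between 221 and 405 TPM in the SKNO-1 libraries. They summed to 1177 and 1255 TPM in the DMSO libraries of U-937 and to 3057 and 3215 with both agents. S100A8, S100A9 and S100A12 made up 0.564% and 0.596% of that sum in U-937 DMSO, 4.98% and 5.16% with ATRA, 6.17% and 5.93% with Corin, and 14% and 13.3% with both. In SKNO-1 they never exceeded 0.127%. The TPM of S100A4 differed between the SKNO-1 DMSO libraries (217 and 293) while its CPM were close (135 and 129).

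**Figure D2:**
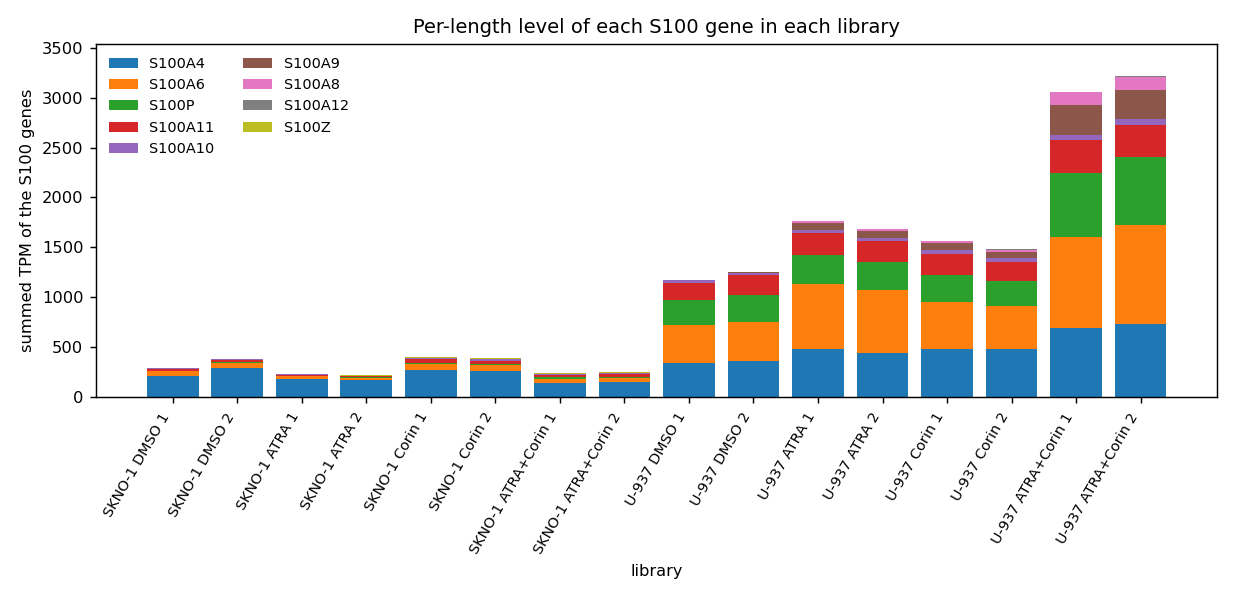
Summed TPM of the 9 S100 genes in each of the 16 libraries, stacked by gene. The U-937 libraries with both agents reach 3057 and 3215 TPM, against 1177 and 1255 with DMSO, and the SKNO-1 libraries lie between 221 and 405.

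The calprotectin genes and S100A12 gave the strongest responses in U-937. S100A8 had 0.423 and 0.262 CPM with DMSO, 6.1 and 6.95 with ATRA, 8.11 and 5.91 with Corin, and 50.5 and 61.2 with both agents. The ATRA and Corin libraries overlapped, both lay above DMSO, and the combination lay above all others. The log2 fold changes against DMSO were 4.22 ± 0.26 for ATRA (SE, adjusted p = 1.55e-11), 4.34 ± 0.26 for Corin (adjusted p = 3.86e-11) and 7.33 ± 0.23 for both (adjusted p = 2.29e-17). With 14 and 8 counts in the DMSO libraries, S100A8 passed the low-count filter through treated groups, where it was higher. Its p-values are therefore a description only. S100A9 had 2.48 and 3.01 CPM with DMSO, 36.4 and 39.6 with ATRA, 35.7 and 28.5 with Corin, and 183 and 196 with both. Its log2 fold changes were 3.79 ± 0.14, 3.56 ± 0.14 and 6.12 ± 0.15, with adjusted p-values of 5.28e-16, 1.39e-14 and 4.07e-20. The TPM ratio of S100A9 to S100A8 was 3.81 and 7.5 with DMSO and 3.97 and 3.75 with ATRA. It was 2.88 and 3.15 with Corin and 2.41 and 2.13 with both agents. The DMSO ratios rest on the 14 and 8 S100A8 counts.

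S100A12, the third gene of the trio, had 0 and 0 counts with DMSO, 1 and 0 with ATRA, 30 and 23 with Corin, and 53 and 99 with both. Corin raised it at least 15.9-fold and the combination at least 49.2-fold over DMSO, with the floor at 3 counts over the group (adjusted p = 3.29e-05 and 8.47e-09). S100A12 passed the low-count filter through groups where it was higher, so its p-values are a description only. The authors' deposited table gives it no adjusted p with Corin. The combination exceeded ATRA by a ratio of 166 (exact 95% interval 29.4 to 6611, counting error only) and Corin by 1.67 ± 0.41 log2 units (adjusted p = 0.00114). That last call rests on 1 library: without the second combination library the difference was 1 (adjusted p = 0.0989). The ATRA value is at the limit of detection, and no fold is given for it.

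The cytoskeletal and annexin-binding members rose less in U-937. S100A6 had 129 and 125 CPM with DMSO and 239 and 256 with ATRA (log2 fold change 0.96 ± 0.12, adjusted p = 4.64e-07). With Corin it had 166 and 133 CPM (0.24, adjusted p = 0.205), and with both 393 and 478 (1.78 ± 0.12). S100A4, a regulator of non-muscle myosin, had 144 and 149 CPM with DMSO, 225 and 229 with ATRA, 220 and 189 with Corin and 384 and 452 with both. Its log2 fold changes were 0.63, 0.48 and 1.52, of which the Corin call was lost without DMSO replicate 1 or without Corin replicate 1 (highest adjusted p = 0.0658). S100A10 rose by 0.48 with ATRA, 0.59 with Corin and 1.62 with both. S100A11 had 79.8 and 89.4 CPM with DMSO and rose by 0.47 with ATRA and 1.29 with both, while the Corin libraries (101 and 79.2) overlapped DMSO (0.10, adjusted p = 0.639). S100P had 86 and 86.8 CPM with DMSO, 112 and 122 with ATRA, 108 and 85.5 with Corin and 290 and 342 with both. It rose by 0.44 ± 0.11 with ATRA (adjusted p = 0.00312, and 0.0627 without ATRA replicate 2) and by 1.88 ± 0.12 with both, and its Corin value was 0.17 (adjusted p = 0.378).

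In U-937, ATRA raised 7 of 8 tested members, beside 21.7% of all genes tested, and Corin raised 5, beside 8.55%. The combination raised all 8 tested members against DMSO (33.1% of genes), against ATRA alone (22.5%) and against Corin alone (29.9%). These comparisons share libraries. S100A12 is among the members counted for Corin and for the combination. It had 0 counts over the DMSO group and passed the low-count filter through groups where it was higher, so its part in these counts is a description only. The same holds for S100A8, which is in all of these counts and passed the filter through treated groups.

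**Figure D3:**
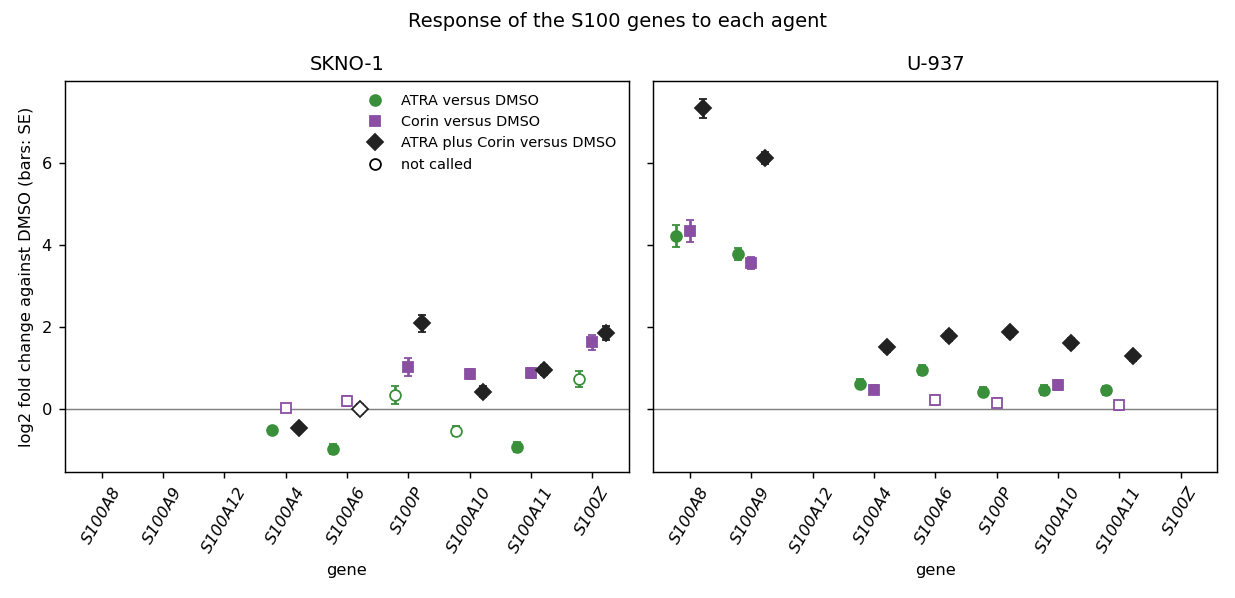
Log2 fold change against DMSO for each S100 gene in SKNO-1 (left) and U-937 (right), with SE bars; green circles are ATRA, purple squares Corin and black diamonds ATRA plus Corin, filled when called. Genes without a point were not tested or had 3 counts or fewer over a group; S100A8 and S100A9 stand highest in U-937, at 7.33 and 6.12 with both agents.

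SKNO-1 gave another pattern, with several members falling under ATRA. S100A6 had 24.2 and 20.3 CPM with DMSO, 11.2 and 11.1 with ATRA, 26.4 and 24.9 with Corin and 23 and 20.3 with both. The ATRA libraries were the lowest, and the combination overlapped DMSO. Its log2 fold change with ATRA was -0.96 ± 0.13 (SE, adjusted p = 0.00293). Its Corin value was 0.21 (adjusted p = 0.223), and 0.34 (adjusted p = 0.0062) without DMSO replicate 1. With both agents it was 0.01 (adjusted p = 0.95), -0.14 (adjusted p = 0.222) without DMSO replicate 2, and -0.33 (adjusted p = 0.00953, a call as lower) with the GC trend removed. S100A11 had 10.1 and 8.91 CPM with DMSO, 4.74 and 5.08 with ATRA, 18.3 and 16.9 with Corin and 18.2 and 17.5 with both. It fell by 0.91 with ATRA (adjusted p = 0.00349) and was 0.89 higher with Corin (adjusted p = 0.000866) and 0.96 higher with both (adjusted p = 0.000446). S100A4 had 135 and 129 CPM with DMSO, 91.8 and 90.2 with ATRA, 136 and 134 with Corin and 96.1 and 89.8 with both. The libraries that received ATRA, alone or with Corin, formed the low set. The log2 fold changes of S100A4 were -0.50 ± 0.07 with ATRA (adjusted p = 0.00276), 0.03 with Corin (adjusted p = 0.712) and -0.46 ± 0.07 with both (adjusted p = 0.000877).

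S100A10 had 6.75 and 6.51 CPM with DMSO, 4.74 and 4.22 with ATRA, 11.8 and 12.3 with Corin and 8.98 and 8.36 with both. Its 4 groups did not overlap. It was 0.86 ± 0.12 higher with Corin (adjusted p = 0.00121) and 0.44 ± 0.12 higher with both (adjusted p = 0.0212), a call that was lost without either combination library, with DESeq2, when low genes were kept, and in a fit of the 4 compared libraries alone (highest adjusted p 0.135). Its ATRA value was -0.53 (adjusted p = 0.0504), and reached an adjusted p of 0.0119 or 0.00504 when the first or second DMSO library was left out and 0.0107 with the GC trend removed. The authors' deposited table gives 0.3675 for S100A10 with both agents, with an adjusted p of 0.317.

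S100P and S100Z rose with Corin and with both agents in SKNO-1. S100P had 1.65 and 1.52 CPM with DMSO, 1.72 and 2.22 with ATRA, 3.75 and 2.78 with Corin and 6.76 and 6.37 with both. It was 1.04 ± 0.22 higher with Corin (adjusted p = 0.007, and 0.0587 without Corin replicate 1; 0.063 in the authors' deposited table) and 2.10 ± 0.21 higher with both (adjusted p = 0.000163), and its ATRA value was 0.36 (adjusted p = 0.488). S100Z had 2.07 and 2.99 CPM with DMSO, 4.12 and 4.11 with ATRA, 7.43 and 8.22 with Corin and 9.36 and 8.39 with both. It was 1.63 ± 0.18 higher with Corin (adjusted p = 0.000376) and 1.86 ± 0.18 higher with both (adjusted p = 0.000137). Its ATRA value was 0.74 (adjusted p = 0.0568), 0.96 (adjusted p = 0.00112) without DMSO replicate 2 and 0.76 (adjusted p = 0.00451) with the GC trend removed. Both agents against Corin gave 0.23 for S100Z (adjusted p = 0.381).

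Over each SKNO-1 group S100A8 had 2 to 5 counts and S100A9 had 4, and S100A12 had none in any library. For S100A8 the ratio of DMSO to ATRA was 2.49 with an exact 95% interval of 0.408 to 26.2 (counting error only), so no difference was detectable at this depth.

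In SKNO-1, ATRA lowered 3 of 6 tested members, beside 3.79% of all genes tested. Corin raised 4 (20.5% of genes), and the combination raised 4 (24.7%) and lowered 1 (22%). Against ATRA alone, the combination raised 5 members (23%): S100A11 by 1.87, S100P by 1.74, S100Z by 1.12, S100A6 by 0.97 and S100A10 by 0.97. Against Corin alone it raised S100P by 1.05 (4.82% of genes higher) and S100A4 fell by 0.49 (5.6% lower). S100A10 had -0.43 there (adjusted p = 0.0637), and passed without the first or second DMSO library (adjusted p = 0.00559 and 0.00605) and with the GC trend removed (adjusted p = 0.0329). S100A6 had -0.20 (adjusted p = 0.313), and -0.55 (adjusted p = 0.00141) with the GC trend removed. The S100P call was lost without either library of Corin or of the combination, and the S100A4 call without Corin replicate 1 or combination replicate 2. With only the 4 libraries of the ATRA comparison in the fit, S100A4, S100A6 and S100A11 missed the threshold (highest adjusted p = 0.0768).

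The log2 response to both agents was set against the ATRA and Corin responses added together, where a departure of 0 means that the fold changes multiply. In U-937, 4 of 8 tested members lay above that sum (8.11% of all genes) and 2 below (15.3%). S100P exceeded it by 1.27 ± 0.16 (SE, adjusted p = 1.49e-06), S100A11 by 0.73 (adjusted p = 0.00115), S100A6 by 0.59 (adjusted p = 0.00993) and S100A10 by 0.55 (adjusted p = 0.0206). S100A8 and S100A9 fell short of it, by -1.23 ± 0.35 (adjusted p = 0.0118) and -1.23 ± 0.18 (adjusted p = 1.83e-05). S100A8 passed the low-count filter through treated groups, so its part in the count is a description only. The S100A8 shortfall was lost without DMSO replicate 2 (highest adjusted p = 0.141). The calls of S100A6 and S100A10 were lost without ATRA replicate 1 or Corin replicate 2, and that of S100A10 also without DMSO replicate 2 or combination replicate 2. S100A4 had 0.41 (adjusted p = 0.0547), and 0.55 (adjusted p = 0.00433) with the GC trend removed. It also passed with library totals only (0.345, adjusted p = 0.0279) and with DESeq2 (0.437, adjusted p = 0.0213). Without Corin replicate 1 it had 0.52, and without combination replicate 1 it had 0.53. S100A12 was tested and not called, and no departure is given because it had 0 counts over the DMSO group. On the linear CPM scale the order differs: S100A8 rose by 55.5 CPM with both, against a sum of 12.8 for the single agents, and S100A9 by 187 against 64.6.

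In SKNO-1, edgeR called 0 of 6 tested members beyond the sum of single effects (0.463% of all genes in either direction), and 3 had an unadjusted p under 0.05. DESeq2 called 2, S100A6 and S100A11. The values were 0.98 ± 0.17 for S100A11 (adjusted p = 0.0644) and 0.76 ± 0.18 for S100A6 (adjusted p = 0.136), and both passed without either DMSO library (adjusted p = 0.000868 and 1.29e-05 for S100A11, which also passed at 0.00262 with the GC trend removed, 0.00272 and 7.62e-06 for S100A6). S100Z had -0.51 (adjusted p = 0.387), and -0.73 (adjusted p = 0.0235) without DMSO replicate 2.

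**Figure D4:**
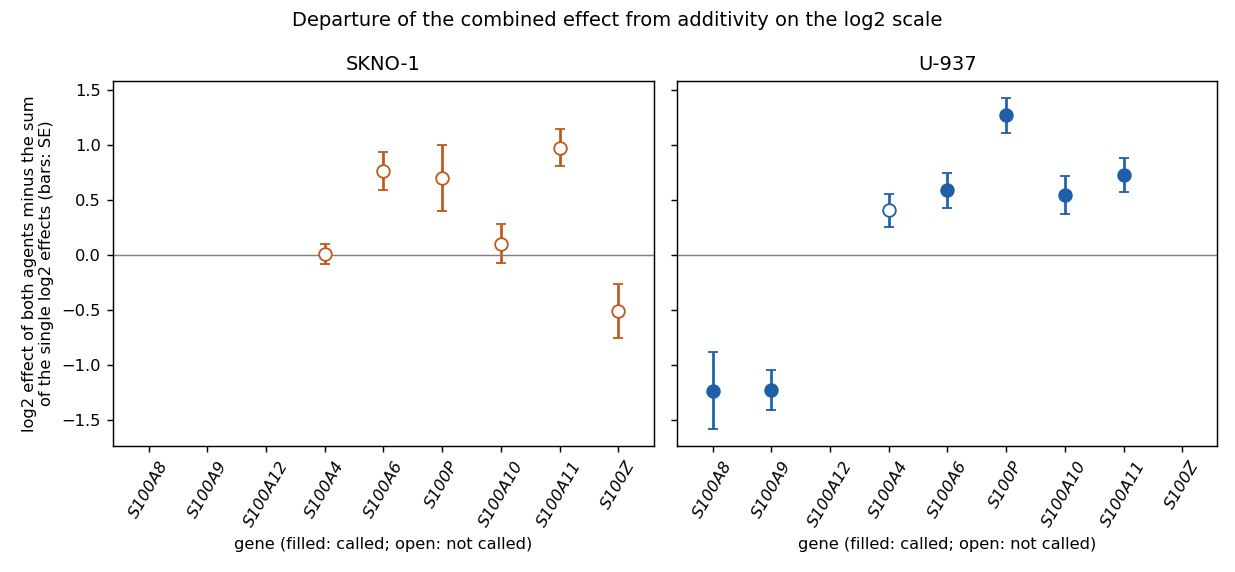
Departure of the combined effect from the sum of the single log2 effects for S100 genes, with SE bars, in SKNO-1 (left) and U-937 (right). Filled points are called. Genes without a point were not tested, except S100A12 in U-937, which is left out and had 0 counts over the DMSO group. S100P, S100A11, S100A6 and S100A10 lie above 0 in U-937 while S100A8 and S100A9 lie at -1.23, and no SKNO-1 point is called.

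The responses themselves were then compared between the lines. The ATRA response was higher in U-937 for 6 of 9 members (10.6% of all genes), and for S100A4, S100A6, S100A10 and S100A11 the fitted responses had opposite signs: differences of 1.17 ± 0.13 (SE, adjusted p = 3.17e-06), 1.96 ± 0.17 (adjusted p = 1.57e-07), 1.05 ± 0.19 (adjusted p = 0.000406) and 1.42 ± 0.17 (adjusted p = 7.99e-06). Of these, the fall of S100A10 in SKNO-1 was not called. The Corin response was higher in U-937 for 2 members (5.28% of genes) and lower for 2 (7.49%). The higher ones were S100A4 (0.45, adjusted p = 0.0294, and 0.0521 with the replicate block) and S100A8. S100A9 had 3.49 (adjusted p = 0.0573) and passed with DESeq2 (adjusted p = 0.0096) and with no low-count filter (adjusted p = 0.0272). The lower ones were S100A11 (-0.80, adjusted p = 0.00271) and S100P (-0.88, adjusted p = 0.0183, lost without SKNO-1 DMSO replicate 2, SKNO-1 Corin replicate 1, U-937 Corin replicate 2 or either U-937 DMSO library). The response to both was higher in U-937 for 5 (17.9%), among them S100A4 by 2.02, S100A6 by 1.81 and S100A10 by 1.23. S100P (-0.18, adjusted p = 0.593) and S100A11 (0.38, adjusted p = 0.0721, but 0.024 without SKNO-1 DMSO replicate 2 and 0.00389 with the GC trend removed) were not called for the combination. Values for S100A8 and S100A9 rest on 2 to 5 counts in each SKNO-1 group. Both are among the members counted for ATRA and for the combination, and S100A8 among those for Corin. They passed the low-count filter through U-937 groups, where they were higher, so their part in these counts is a description only.

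Genes that work with S100 proteins were counted from lists chosen by function. Among 11 intracellular partners in SKNO-1, ATRA raised 1 and lowered 5, beside 2.96% of all genes higher and 3.79% lower. Corin raised 6 and lowered 1 there (20.5% and 17.3% of all genes). In U-937, ATRA raised 6 and lowered 4 (21.7% and 20.1%), and Corin raised 5 (8.55%). ANXA2, the annexin that S100A10 binds, had 27.3 ± 0.06 CPM with DMSO (SD, n = 2), 15.3 ± 1.46 with ATRA and 249 ± 11.3 with Corin, log2 changes of -0.80 and 3.19. In U-937 it moved by -0.46 with ATRA and 1.93 with Corin. ANXA1, the S100A11 partner, changed by -1.36, 1.35 and 0.87 in SKNO-1 and by 2.52, 1.77 and 4.43 in U-937 for ATRA, Corin and both, each called. CACYBP, the S100A6 partner, fell by 1.39 with both agents in U-937.

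Of the receptors for extracellular S100 proteins, ATRA raised 7 of 9 tested in U-937, beside 21.7% of all genes. In SKNO-1 it raised 1 of 8, TLR4, and lowered 2, CD33 and CD69 (2.96% and 3.79% of all genes). Both agents raised 6 and lowered 2, ALCAM and BSG, in U-937 (33.1% and 32.2%), and raised 1 and lowered 3 in SKNO-1 (24.7% and 22%). In U-937 with both agents, TLR4 rose by 1.62, its co-receptor LY96 by 5.40 and the scavenger receptor CD36 by 4.85. LY96 also rose in SKNO-1, by 5.22 with Corin, from 0.235 to 8.8 CPM. It passed the low-count filter in that line through groups where it was higher, so its SKNO-1 values are a description only. Of the transcription factors known for S100A8 and S100A9 control, both agents together raised 6 of 7 tested in U-937 and lowered CEBPA, beside 33.1% of all genes higher and 32.2% lower. In SKNO-1 they raised 3 of 8 and lowered 2, STAT3 (-0.54) and CEBPD (-0.77), beside 24.7% higher and 22% lower. CEBPB rose in both lines, by 2.61 and 2.06, while CEBPE rose by 3.23 in U-937 and had 0.15 in SKNO-1, where it was not called.

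Other neutrophil and monocyte maturation genes rose with Corin in SKNO-1, where S100A8, S100A9 and S100A12 had 5 counts or fewer over each group. Of 20 such genes, 8 were not tested there, and Corin raised the 12 that were, beside 20.5% of all genes. Among those 12, CYBB, CD14 and CAMP had 3 counts or fewer over the DMSO libraries and passed the low-count filter through groups where they were higher, so the count of 12 is a description only. ITGAM, which encodes CD11b, rose from 0.394 to 37.4 CPM, VCAN from 1.24 to 49.2 and LYZ, lysozyme, from 65.3 to 333. In U-937, where 15 were tested, Corin raised 12 (8.55% of all genes), and both agents raised 13 and lowered FCN1 (33.1% and 32.2%). ATRA alone raised 2 and lowered 3 of the 12 in SKNO-1 (2.96% and 3.79% of all genes). In U-937 it raised 8 and lowered 3 of the 15 (21.7% and 20.1%), where MMP9 had 3 counts or fewer over a group. Of 11 other S100 genes, 3 were tested in each line. Corin raised S100B (1.64) and S100A1 (2.39) in SKNO-1, beside 20.5% of all genes. In U-937, S100B rose by 1.07 with ATRA (21.7% of all genes) and S100A2 by 1.93 with Corin (8.55%). Over a group, S100A1 had 5 counts with DMSO and 26 with Corin in SKNO-1, and S100A2 had 14 and 60 in U-937. S100B had 21 counts with DMSO and 63 with Corin in SKNO-1. In these lines the genes passed the low-count filter through treated groups, where they were higher, so these Corin calls are a description only.

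The levels of each member were also set against those of 10559 other genes by Pearson correlation of log2(CPM + 1) over the 16 libraries, a description that the split between lines dominates. S100A8 was most like BMX (r = 0.992) and PCAT18 (0.99), and S100A9 most like SLFN5 (0.993) and CPPED1 (0.987). S100A12 was nearest CYTIP (0.965) and AQP9 (0.957). S100Z was nearest F2RL1 (0.997) and SERPINB9 (0.995), S100P nearest RPP25 and IL18 (both 0.993), S100A11 nearest BIN2 and GLIPR2 (both 0.993), S100A6 nearest RASSF2 (0.993), and S100A10 nearest ACOT9 (0.99). CAT (0.973) was among the genes most like S100A4. With Spearman correlation (of ranks) in place of Pearson, 0 of the 3 nearest genes were shared for any member, so the genes named depend on the measure.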

How the data were processed

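Total RNA libraries (stranded kit, 100 bp reads) were processed by the authors with Trimmomatic, STAR and RSEM on hg38, per the submitters' processing notes, which also name DESeq2; versions, annotation and strand settings are not given in the sources used here. The authors deposited RSEM expected counts per gene for 16 libraries, with TPM in single-library files; 20.4% of positive values were not whole, and they were rounded, which changed a library total by at most 74.52. The authors' deposited comparison tables give log2 fold changes and adjusted p-values; they were used only where named.

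Genes were filtered with filterByExpr, scaled by TMM and tested with edgeR 4.0.16 (quasi-likelihood, robust; R 4.3.3) with Benjamini-Hochberg adjustment over all genes: 17479 in SKNO-1, 17717 in U-937 (8 libraries each, all 4 groups sharing the spread) and 19872 for comparisons between lines. The text names all 9 members, and list genes that were called or on which a result turns. For the likeness comparison, genes with clone names were left out and the mean had to reach 5 CPM. Some results of that comparison are not reported here. The members, lists and tests were chosen with earlier results of these data known. Promoter windows are from RefSeq, matched by symbol for 9 of 9. DESeq2 1.42.0, library totals, no filter, GC trend removal, a replicate block, only the libraries compared and leaving out each library were alternatives. The code was tested on simulated data.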

Additional observations from a re-analysis of the deposited data

Results flagged for a closer look

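These results differed between SKNO-1 and U-937 when the difference itself was tested (edgeR, adjusted p under 0.05); each value is the log2 response in U-937 minus that in SKNO-1. For ATRA the differences were 1.17 for S100A4, 1.96 for S100A6, 5.44 for S100A8, 3.79 for S100A9, 1.05 for S100A10 and 1.42 for S100A11. For Corin they were 0.45 for S100A4, 4.96 for S100A8, -0.80 for S100A11 and -0.88 for S100P. For both agents they were 2.02 for S100A4, 1.81 for S100A6, 7.53 for S100A8, 6.02 for S100A9 and 1.23 for S100A10. The S100A8 and S100A9 values rest on 2 to 5 counts over each SKNO-1 group, and both genes passed the low-count filter through U-937 groups, where they were higher. The ATRA difference of S100A9 lost its call without either SKNO-1 DMSO library or without SKNO-1 ATRA replicate 1 (highest adjusted p = 0.14), and the Corin difference of S100A4 lost it without SKNO-1 DMSO replicate 1, either SKNO-1 Corin library, U-937 DMSO replicate 1 or U-937 Corin replicate 1, and with the replicate block (highest adjusted p = 0.12). SKNO-1 was grown with GM-CSF and U-937 was not.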

How the results depend on the processing

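Counts of members called moved by over 1.5 times in these cases. ATRA against DMSO in SKNO-1 (3 called) gave 5 with no low-count filter, 5 with the GC trend removed, 0 with only the libraries compared, and 3 to 5 when 1 library was left out (5 without DMSO replicate 2). Both agents against Corin in SKNO-1 (2 called) gave 4 with the GC trend removed, 4 with only the libraries compared, and 0 to 3 with 1 library left out. The departure from additivity in SKNO-1 (0 called) gave 2 with no filter, 1 with the GC trend removed, 2 with DESeq2, and 0 to 3 with 1 library left out. The Corin response between lines (4 called) gave 2 to 4 with 1 library left out. The cause was not tested. Values that changed sign were uncalled to begin with, and all but 1 stayed uncalled: S100A6 with both agents in SKNO-1 became a call as lower with the GC trend removed (adjusted p = 0.00953). In SKNO-1 the values were S100A6 with both agents (0.01; -0.006 with no filter, -0.329 with the GC trend removed, -0.024 with DESeq2, and -0.143 to 0.154 with 1 library left out), S100A4 with both against ATRA (-0.073 with the GC trend removed, -0.017 to 0.089), the S100A4 departure (-0.028 with library totals, -0.084 with the GC trend removed, -0.047 to 0.109) and S100A4 with Corin (-0.036 to 0.066). In U-937 they were S100A11 (-0.098 to 0.263) and S100P (-0.017 to 0.325) with Corin. Between lines they were the ATRA response of S100P (-0.105 to 0.259) and the Corin response of S100A6 (-0.016 with library totals, -0.081 with the GC trend removed, -0.13 to 0.196).

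With the replicate block, ATRA against DMSO called 3 members in SKNO-1 and 7 in U-937, as without it, and both agents called 5 and 8. The block cost 1 call, the Corin response of S100A4 between lines (0.45). Within a line, the log2 difference of replicate 1 minus replicate 2 was correlated over genes between groups, with r from -0.489 to 0.415. Whether the numbers pair the samples cannot be told from this, because such differences also followed GC content (r = 0.811 in SKNO-1 DMSO). Library totals moved the all-gene median of the combination response between lines from -0.106 to -0.263. Depth limits S100A8, S100A9 and S100A12 in SKNO-1 and S100Z in U-937.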
